A study of Homo sapiens with 10 samples.

Results

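Heat shock factor 1 (HSF1) and the chaperones it is known to control were followed in the human melanoma line MDA-MB-435 through the 21 probe sets of Affymetrix hgu133a arrays whose single gene symbol was HSF1, DNAJA1, DNAJB1, HSPA4, HSPH1, HSP90AA1, HSP90AB1, HSPD1 or HSPE1. These 9 genes stand among the 11963 genes with such a probe set on the array, and the 21 stand among 22283 probe sets. Tests were run on the probe sets with the higher signals, and all 21 were among these. A 10th gene of the group, HSPA8, was represented by 3 probe sets that also carry symbols of other genes, so none of its values are given. The experiment had 10 arrays, 2 biological replicates of each of 5 groups: untreated cells, cells after 1 h, 6 h or 24 h with hepatocyte growth factor (HGF), and cells transduced with integrin beta 4 (ITGB4). HGF is the ligand of the MET receptor and drives proliferation and motility. The labels give no HGF dose and no untreated culture at the later times, so every HGF group was set against the same 2 untreated arrays. They do not describe the vector, nor whether the transduced cells were a clone or a pool, and the descriptions of both ITGB4 arrays also carry the word Mock without explaining it. Of 11 melanocyte lineage markers, 10 were on the array and all 10 were kept, with a median level of 11.32 on the log2 scale. The median was 5.16 for 9 epithelial markers, of which only KRT18 was kept, and 6.16 for 7 fibroblast markers, of which COL1A1 and DCN were kept. Replicates differed over the probe sets with an SD of 0.18 at 6 h, 0.20 in untreated cells, 0.26 at 24 h, and 0.28 both at 1 h and with ITGB4. RNA came from whole cultures, where fewer cells of a kind and less RNA per cell cannot be told apart.

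HSF1 is the main transcription factor of the heat shock response. It is held inactive by chaperones in unstressed cells, and when unfolded proteins draw these away it forms trimers and binds heat shock elements, alternating repeats of the letters GAA and TTC. Its targets work as a team. DNAJA1 and DNAJB1 are HSP40 proteins, which hand unfolded clients to HSP70 and stimulate its ATP hydrolysis. HSPA4 and HSPH1 belong to the HSP110 family and act as nucleotide exchange factors of HSP70. HSP90AA1 and HSP90AB1 are the inducible and the constitutive cytosolic HSP90, which mature kinases and receptors, MET among their clients. HSPD1 and HSPE1 are HSP60 and HSP10, the chamber and the lid of the chaperonin of the mitochondrial matrix.

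The letters HSF1 is known to bind were looked for in RefSeq promoter windows of GRCh38.p14, 250 bases before to 50 after each start site, because these genes are described together as its targets. A match to 3 units (GAANNTTCNNGAA or TTCNNGAANNTTC, which covers both strands) was present in 172 of 35116 windows, or 0.49%. Of the 15 windows of the 9 genes that had one, 5 held such a match, 1 window each of DNAJA1, HSPA8, HSP90AA1, HSP90AB1 and HSPD1. A match to 2 units (GAANNTTC or TTCNNGAA, the words contained in the longer ones) was present in 13.5% of all windows and in 7 of the 15, among them 2 of the 3 windows of DNAJB1. The windows of HSPA4, HSPH1 and HSPE1 held neither word. No window of HSF1 was used here. The genes were chosen with their regulation by HSF1 known, and a match is a description of letters, not of binding. Stretches of 30 bases around matches are shown, all those to 3 units in the genes with values here and 1 of the 3 matches to 2 units in DNAJB1, 5′ to 3′ on the gene's strand so that they can be compared, with the matched letters in capitals. Those of HSPA8, which has no values here, are left out.
DNAJA1, chr9:33025267-33025296, plus strand, across the start site: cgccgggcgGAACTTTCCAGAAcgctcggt
DNAJB1, chr19:14518426-14518455, minus strand: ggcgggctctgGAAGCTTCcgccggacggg
HSP90AA1, chr14:102087112-102087141, minus strand: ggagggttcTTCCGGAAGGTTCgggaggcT
HSP90AB1, chr6:44247769-44247798, plus strand: gggagcaggTTCTGGAAGATTCatgggctc
HSP90AB1, chr6:44247822-44247851, plus strand: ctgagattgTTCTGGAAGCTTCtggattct
HSPD1, chr2:197500061-197500090, minus strand: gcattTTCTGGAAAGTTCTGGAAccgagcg
The last capital of the HSP90AA1 stretch begins a further match to 2 units. In DNAJA1 the match to 3 units lay 3 to 15 bases after the start site, inside the transcribed sequence. In HSPD1 overlapping matches lay 228 to 245 bases before the more downstream of its 2 start sites. HSPE1 is transcribed from the other strand, and its start site lay 105 bases from the upstream start of HSPD1, so these matches were also 294 to 311 bases before the HSPE1 start site and outside its window. For DNAJA1 and HSPH1, the genes with the largest differences below, the 250 bases before the start site are shown in full, the first with a match to 2 units 191 to 198 bases before the start and the second with none.
DNAJA1, chr9:33025023-33025272, plus strand: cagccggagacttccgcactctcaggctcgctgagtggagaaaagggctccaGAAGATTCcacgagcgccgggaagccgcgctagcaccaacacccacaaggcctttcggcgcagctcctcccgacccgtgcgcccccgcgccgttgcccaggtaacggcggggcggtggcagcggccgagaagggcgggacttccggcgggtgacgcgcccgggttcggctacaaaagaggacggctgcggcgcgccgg
HSPH1, chr13:31162389-31162638, minus strand: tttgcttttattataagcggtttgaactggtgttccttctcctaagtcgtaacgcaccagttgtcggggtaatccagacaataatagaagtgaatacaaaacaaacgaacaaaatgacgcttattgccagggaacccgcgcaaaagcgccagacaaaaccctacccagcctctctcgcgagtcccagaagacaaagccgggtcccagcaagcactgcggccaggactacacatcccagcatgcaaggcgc

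**Figure D1:**
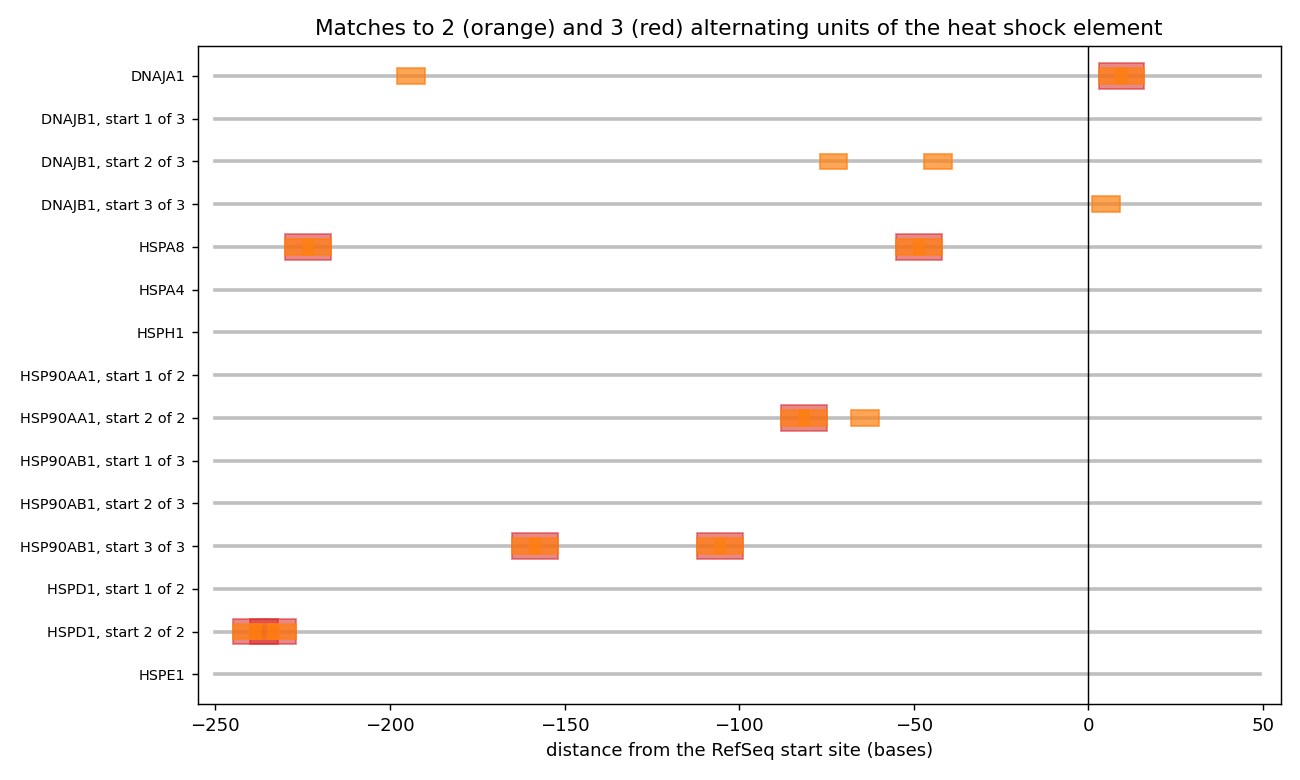
Places of heat shock element matches in the 15 promoter windows, as distance from the RefSeq start site in bases (0 is the start site). Orange boxes are matches to 2 units, which 7 windows hold, and red boxes matches to 3 units, which 5 windows hold. The other windows are empty, among them the only windows of HSPA4, HSPH1 and HSPE1.

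The largest and most numerous differences of the chaperones lay between 6 h and 24 h with HGF. In that comparison 11 of the 21 probe sets, of DNAJA1, DNAJB1, HSPA4, HSPH1 and HSPE1, were lower at 24 h at an adjusted p under 0.05 (limma) and none was higher, where 12.6% of all probe sets tested were lower and 6.96% higher. When each array was centred on its median, 47.1% rather than 35.6% of the calls over all probe sets were higher, and the same 11 of the 21 were called. The median difference of the 21 was -0.55 on the log2 scale, and that of all probe sets tested was -0.01. Both arrays at 24 h lay below both arrays at 6 h in 18 of the 21, compared with 33.9% of all probe sets. The calls covered all 4 HSP40 and all 6 HSP110 probe sets, 1 of 3 of the mitochondrial chaperonin, none of 6 of HSP90 and none of 2 of HSF1. The count depended on single arrays. It fell most without either 6 h array or HGF 24 h replicate 1. Each of these fits leaves 1 array in a group, and calls over all probe sets were fewer in them too. The probe set 200880_at of DNAJA1 and both probe sets of HSPH1 were called whichever array was left out, with adjusted p-values up to 0.0160, 0.0345 and 0.0465. Among the marker genes KRT18 differed by -0.52 from 6 h to 24 h (adjusted p = 0.0462, limma) and MITF by 0.46 (adjusted p = 0.0460). MITF was 1 of 10 kept melanocyte markers, the only one called there, and the median difference of the 10 was -0.04. Against untreated cells at 6 h, 2 of the 10 were called, MITF at -0.81 (adjusted p = 0.0127) and TYR at -0.48 (adjusted p = 0.0391), where 6.47% of all genes were. The part of these markers in the differences of the chaperones was not tested.

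DNAJA1 (GRCh38.p14 chr9:33025273-33039907) had the largest difference of the group. Its probe set 200880_at read 8.99 and 8.92 in untreated cells, 8.35 and 8.43 at 1 h, 9.76 and 9.66 at 6 h, 7.81 and 7.77 at 24 h, and 9.42 and 8.58 with ITGB4. The replicates of each HGF time point lay close together, and no HGF time point overlapped another or the untreated arrays. The ITGB4 arrays fell on either side of the untreated ones. From 6 h to 24 h the level fell by 1.92 (SE 0.21, adjusted p = 0.000961, limma), to 26.4% of the level at 6 h. From 1 h to 6 h it had risen by 1.32 (SE 0.21, adjusted p = 0.00495), or 2.50-fold. The differences from untreated cells were -0.57 at 1 h (adjusted p = 0.127), 0.76 at 6 h (adjusted p = 0.0579) and -1.17 at 24 h (adjusted p = 0.345), none of them called. The second probe set, 200881_s_at, read 10.13 and 9.98 in untreated cells, 9.48 and 10.08 at 1 h, 10.46 and 10.67 at 6 h, 9.37 and 9.41 at 24 h, and 10.47 and 9.89 with ITGB4. It had the same order of the HGF groups, with one of the 1 h arrays among the untreated values. It rose by 0.78 (SE 0.22, adjusted p = 0.0312) from 1 h to 6 h and fell by 1.18 (SE 0.22, adjusted p = 0.00540) from 6 h to 24 h. The rise was not called without HGF 1 h replicate 1 or either 6 h array (adjusted p up to 0.211), and its size was 0.48 without HGF 1 h replicate 1 and 1.09 without replicate 2. The fall was not called without HGF 6 h replicate 2 (adjusted p = 0.0562). RefSeq lists 6 pseudogenes named after DNAJA1, whose transcripts the array may not tell from the gene.

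DNAJB1 (chr19:14514769-14560391), the HSP40 protein that is strongly induced by heat, moved less. Its probe set 200666_s_at read 10.64 and 10.17 in untreated cells, 10.42 and 10.66 at 1 h, 10.79 and 10.72 at 6 h, 9.85 and 10.19 at 24 h, and 10.56 and 9.94 with ITGB4. The untreated pair was wide and overlapped the pairs at 1 h and at 24 h, while the 6 h pair was above every other array. From 6 h to 24 h it fell by 0.73 (SE 0.22, adjusted p = 0.0375), and the second probe set, 200664_s_at, by 0.71 (SE 0.22, adjusted p = 0.0437). These were the calls nearest the threshold between 6 h and 24 h, and both were lost when either 6 h array or HGF 24 h replicate 1 was left out, at adjusted p-values up to 0.194 and 0.228. That of 200664_s_at was also lost without either 1 h array. From 1 h to 6 h the differences of DNAJB1 were small, at 0.21 and 0.16 (adjusted p = 0.508 and 0.616). Whether DNAJB1 differed from DNAJA1 in that step was not tested.

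**Figure D2:**
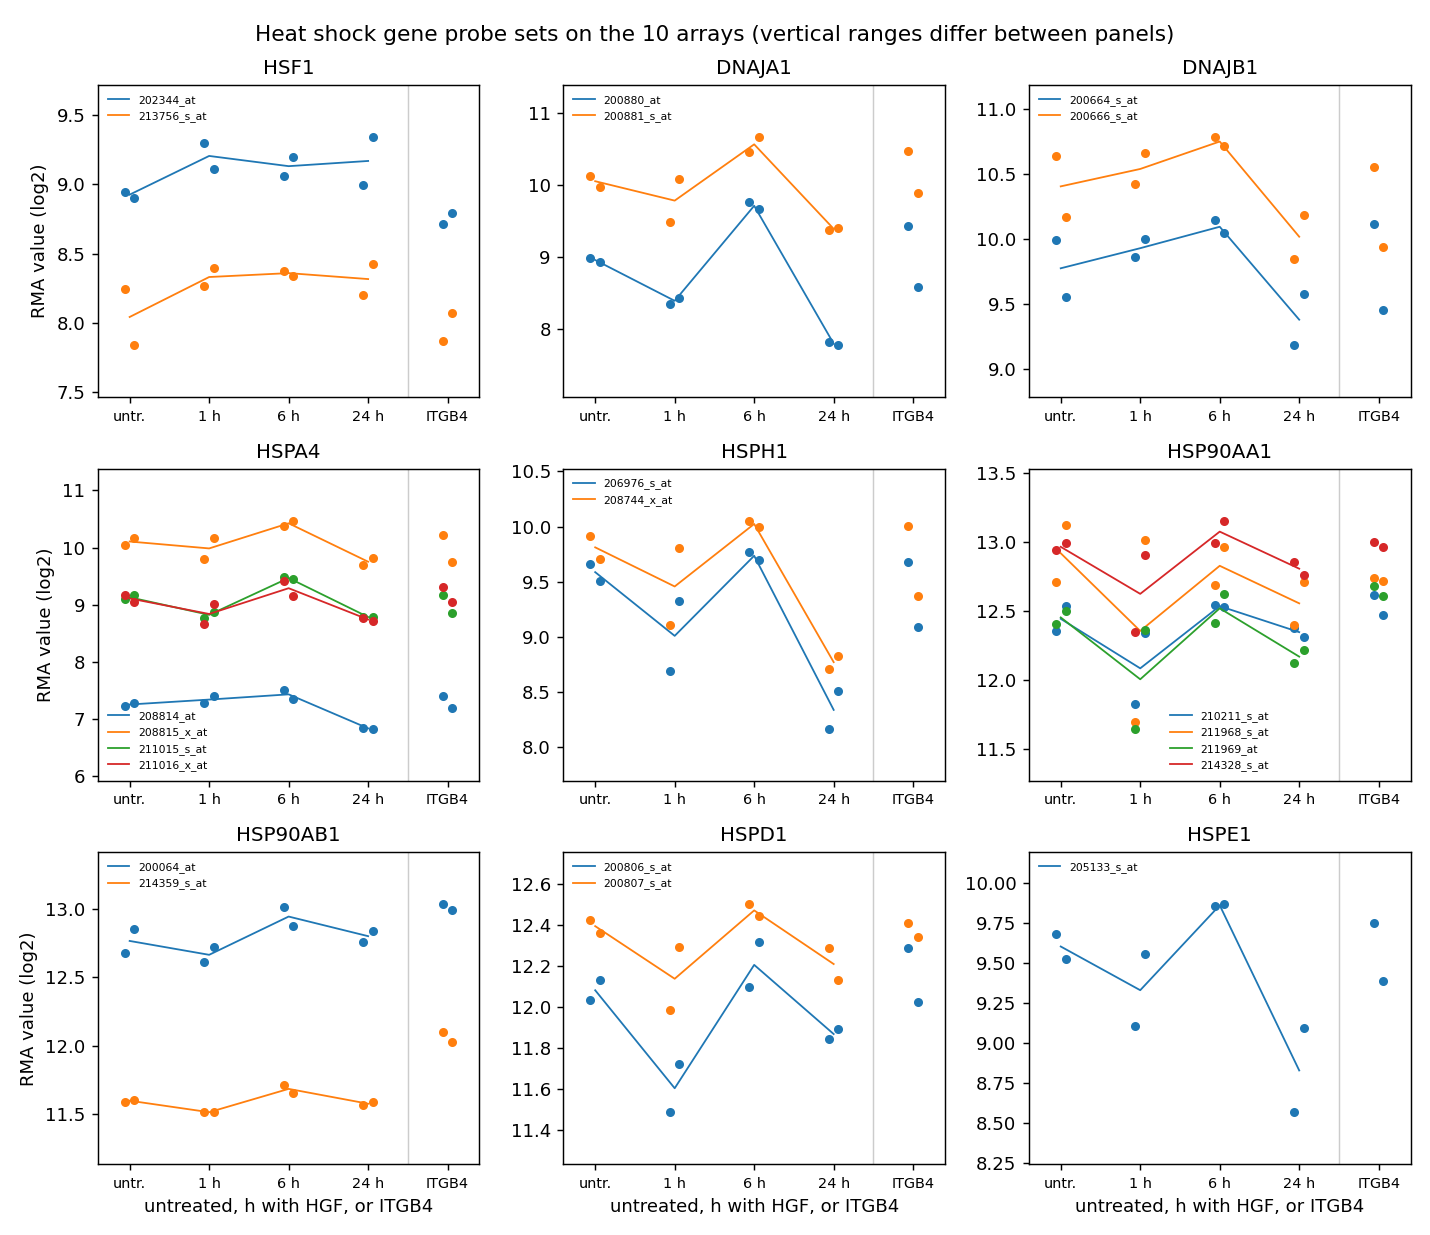
RMA value (log2 scale, vertical axis) of each probe set on each of the 10 arrays for the 9 genes. Points are single arrays, colours are probe sets and lines join the means of untreated cells and of 1, 6 and 24 h with HGF; ITGB4 arrays stand apart on the right. DNAJA1, HSPH1 and HSPE1 peak at 6 h and have their lowest values at 24 h, and HSP90AA1 is lowest on HGF 1 h replicate 1.

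The HSP110 genes had all their probe sets called between 6 h and 24 h. HSPH1 (chr13:31134973-31162388) read 9.66 and 9.51 in untreated cells, 8.69 and 9.33 at 1 h, 9.77 and 9.70 at 6 h, 8.17 and 8.51 at 24 h, and 9.68 and 9.09 with ITGB4, on probe set 206976_s_at. Both 24 h arrays were below all the others, while the 1 h and the ITGB4 pairs were wide. The level fell by 1.40 (SE 0.23, adjusted p = 0.00327) from 6 h to 24 h, to 37.9% of that at 6 h. The second probe set, 208744_x_at, fell by 1.25 (SE 0.23, adjusted p = 0.00574), and over the 10 arrays the pair correlated at r = 0.987. From 1 h to 6 h the first rose by 0.73 (SE 0.23, adjusted p = 0.0489), a call lost under 8 of 17 alternatives, with adjusted p-values between 0.0200 and 0.305. With the replicate block its adjusted p was 0.0508. The difference was 0.41 without HGF 1 h replicate 1 and 1.04 without replicate 2. The second differed by 0.57 (adjusted p = 0.112). Against untreated cells the 24 h differences of HSPH1 were -1.25 (SE 0.23), the largest of the 21, and -1.04 (SE 0.23), both at an adjusted p of 0.345.

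HSPA4 (chr5:133052013-133106449) had differences from 6 h to 24 h that lay close together over its 4 probe sets. They were -0.60, -0.67, -0.68 and -0.55, with SE between 0.12 and 0.17 and adjusted p-values of 0.00876, 0.0221, 0.00621 and 0.0298. Leaving out any of the 6 h and 24 h arrays ended the calls of both x_at probe sets, and leaving out one 6 h array ended each of the other 2, with adjusted p-values up to 0.0803 for 208814_at and 0.0518 for 211015_s_at. On 211015_s_at the arrays read 9.10 and 9.16 in untreated cells, 8.77 and 8.88 at 1 h, 9.49 and 9.45 at 6 h, 8.78 and 8.79 at 24 h, and 9.18 and 8.85 with ITGB4. The 1 h and 24 h pairs were close to each other, below the untreated pair, and the 6 h pair was above every other array. This probe set rose by 0.65 (SE 0.13, adjusted p = 0.0102) from 1 h to 6 h, a call lost without HGF 1 h replicate 1 or either 6 h array (adjusted p up to 0.0739), and the other 3 differed by 0.09 to 0.45 (adjusted p from 0.0624 to 0.619). The dimmest, 208814_at, with values from 6.83 to 7.51, followed the others least, at r from 0.66 to 0.76, and was not among the 7000 probe sets of a stricter filter.

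The mitochondrial pair did not give like values. HSPE1 (chr2:197500379-197503449), measured by 205133_s_at alone, read 9.68 and 9.52 in untreated cells, 9.11 and 9.55 at 1 h, 9.85 and 9.87 at 6 h, 8.57 and 9.09 at 24 h, and 9.75 and 9.39 with ITGB4. The 24 h arrays were below all the others, although they differed from each other more than the 6 h pair did. The level fell by 1.03 (SE 0.20, adjusted p = 0.00669) from 6 h to 24 h, to 48.9% of that at 6 h, and the call was lost without HGF 6 h replicate 2 or HGF 24 h replicate 1, at adjusted p-values up to 0.0550. HSPD1 (chr2:197486584-197500274) read 12.03 and 12.13 in untreated cells, 11.48 and 11.72 at 1 h, 12.10 and 12.32 at 6 h, 11.84 and 11.89 at 24 h, and 12.29 and 12.02 with ITGB4, on 200806_s_at. On this probe set its lowest pair was that at 1 h, not that at 24 h. It rose by 0.60 (SE 0.14, adjusted p = 0.0165) from 1 h to 6 h, and its difference from 6 h to 24 h was -0.34 (SE 0.14, adjusted p = 0.116). The rise was not called without HGF 1 h replicate 1 or either 6 h array (adjusted p up to 0.142). On 200807_s_at these differences were 0.33 (adjusted p = 0.0983) and -0.26 (adjusted p = 0.187). There the 1 h arrays, at 11.98 and 12.29, overlapped the 24 h arrays, at 12.29 and 12.13. HSPE1 differed by 0.53 (SE 0.20, adjusted p = 0.0866) from 1 h to 6 h. The difference between the 2 genes in either step was not tested. Many processed copies are known for both, and RefSeq lists 22 pseudogenes named after HSPD1 and 28 named after HSPE1, which the array may not tell from them.

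In the limma fit to all 10 arrays from which the calls here are taken, no HSP90 probe set was called in any comparison. The 4 probe sets of HSP90AA1 (chr14:102080742-102139749) had differences of -0.19 to -0.35 from 6 h to 24 h, with adjusted p-values from 0.232 to 0.596. Their lowest values came from a single array. On 211968_s_at, HGF 1 h replicate 1 read 11.69 and replicate 2 read 13.01, whereas untreated cells read 12.71 and 13.12, the 6 h arrays 12.69 and 12.96, the 24 h arrays 12.40 and 12.71, and the ITGB4 arrays 12.73 and 12.71. On the other 3 probe sets HGF 1 h replicate 1 was likewise the lowest of the 10 arrays, at 11.82, 11.64 and 12.34. From 1 h to 6 h the differences were 0.45 to 0.51, with adjusted p-values from 0.0748 to 0.324. Without HGF 1 h replicate 1 they were 0.19 on 210211_s_at, -0.19 on 211968_s_at, 0.16 on 211969_at and 0.17 on 214328_s_at, so that 211968_s_at changed sign. Without HGF 1 h replicate 2 all 4 were called, both at 6 h against 1 h and at 1 h against untreated cells, where 211968_s_at moved from -0.56 to -1.22 (adjusted p = 0.0169). HSP90AB1 (chr6:44246194-44253883) varied little over the HGF time course. Its probe set 214359_s_at read 11.59 and 11.61 in untreated cells, 11.52 and 11.51 at 1 h, 11.72 and 11.65 at 6 h, and 11.56 and 11.59 at 24 h. The ITGB4 arrays read 12.10 and 12.03 and stood above all 8 others, but the difference of 0.47 from untreated cells (SE 0.11) was not called (adjusted p = 0.259). On 200064_at the ITGB4 arrays read 13.03 and 12.99, with a difference of 0.25 (SE 0.12, adjusted p = 0.860).

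HSF1 itself, the regulator, had no call. Probe set 202344_at read 8.95 and 8.90 in untreated cells, 9.30 and 9.11 at 1 h, 9.06 and 9.20 at 6 h, 9.00 and 9.34 at 24 h, and 8.71 and 8.79 with ITGB4. All 6 HGF arrays were above both untreated arrays, which were above both ITGB4 arrays, but the steps between groups were about as wide as the pairs. The differences from untreated cells were 0.28, 0.21 and 0.24 at 1 h, 6 h and 24 h (adjusted p = 0.229, 0.422 and 0.528). On 213756_s_at they were 0.29, 0.32 and 0.27 (adjusted p = 0.255, 0.249 and 0.522). The order of the arrays did not recur there. The ITGB4 arrays, at 7.87 and 8.07, lay between the untreated ones, at 8.24 and 7.84, as did HGF 24 h replicate 1, at 8.20. Between 6 h and 24 h, where the chaperones differed most, HSF1 differed by 0.04 and -0.04. The activity of HSF1 is set largely by its assembly and modification, which these arrays do not measure.

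**Figure D3:**
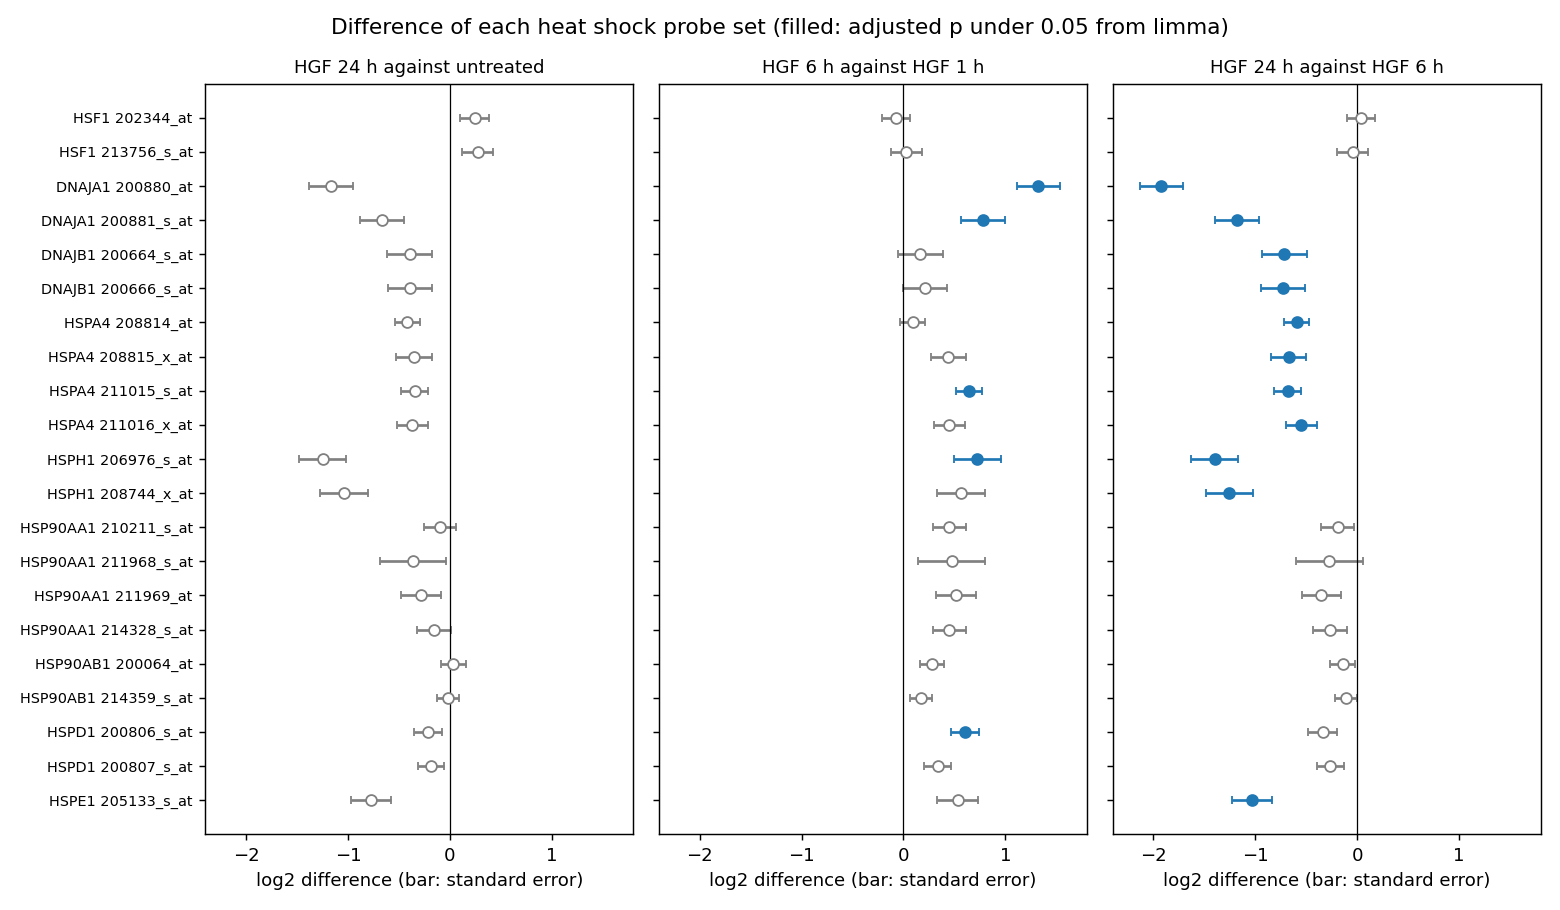
Log2 difference (horizontal axis, bar: standard error from limma) of each of the 21 probe sets in 3 comparisons. Filled points passed an adjusted p under 0.05: none at 24 h against untreated cells, 5 above 0 at 6 h against 1 h and 11 below 0 at 24 h against 6 h.

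From 1 h to 6 h with HGF, 5 of the 21 probe sets were higher and none was lower, over DNAJA1, HSPA4, HSPH1 and HSPD1. Of all probe sets tested 11.9% were higher and 6.42% lower, a split of 64.9% higher among the calls that was 54.4% when each array was centred on its median. The median difference of the 21 was 0.45, against -0.02 for all. Both 6 h arrays were above both 1 h arrays in 17 of the 21, compared with 32.5% of all. The 1 h arrays differed from each other. On HGF 1 h replicate 1 the median of the 21 was 0.44 below the untreated mean, and on replicate 2 it was 0.05 below it. With replicate 1 left out the count fell, and with replicate 2 left out it rose. It also fell without either 6 h array. In each of the settings just named where it fell, 1 array was left in a compared group and calls over all probe sets were far fewer too. The count was also lower with the replicate block and without either HGF 24 h array, where calls over all probe sets were not fewer. It was lower without either untreated array as well, where they were fewer. The difference of 200880_at of DNAJA1 was 1.28 without HGF 1 h replicate 1 and 1.37 without its replicate 2. A trended and robust prior gave a count of 9, with 19% of all probe sets called in either direction. With the probe sets of each gene averaged, 2 genes rather than 4 were called, DNAJA1 at 1.05 and HSPD1 at 0.47. With each gene represented by its probe set with the highest mean, 1 of the 9 genes was higher, DNAJA1. That was 11.1%, near the 11.7% of all 6370 genes. The part of single arrays in the step was not tested further.

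None of the 21 was called against untreated cells. At 1 h, where 5.67% of all probe sets were called, the median difference was -0.27 and both arrays were below both untreated arrays in 10 of the 21, compared with 25.9% of all. An unadjusted p under 0.05 was reached by 6 of the 21 and by 2692 of all. These were similar shares of the 21 and of all probe sets tested. Without HGF 1 h replicate 2 the differences of the HSP90AA1 probe sets ran from -0.62 to -1.22, and the count of calls rose. It also rose without either ITGB4 array. In each of these settings more of all probe sets were called too. HSPD1 came nearest to a call, at -0.48 (SE 0.14, adjusted p = 0.0700), on 200806_s_at. At 6 h, where 6.22% of all were called, the median difference was 0.18. Both arrays were above both untreated arrays in 16 of the 21, compared with 32.6% of all. At an unadjusted p under 0.05 were 3 of the 21 and 2357 of all. That was a smaller share of the 21 than of all probe sets tested. Without either ITGB4 array the count also rose at 6 h and at 24 h, as did that over all probe sets. At 24 h no probe set of the whole array was called, or 0%. Yet the median difference of the 21 was -0.35, where that of all probe sets was 0.003, and both arrays were below both untreated arrays in 15 of the 21, compared with 24.2% of all. An unadjusted p under 0.05 was reached by 8 of the 21 and by 1131 of all. That was a larger share of the 21 than of all probe sets tested. Dunnett's test, which compares each group with the untreated one using the spread of all groups, called none of the 21 at any time. Over all probe sets it called 1 at 1 h, 13 at 6 h and none at 24 h. With so few calls anywhere, it cannot tell whether the 21 differed from untreated cells. When p-values were adjusted over the 4 comparisons with untreated cells together, 2 of the 21 were called at 24 h, 200880_at of DNAJA1 and 206976_s_at of HSPH1. Of all probe sets 0.168% were called at 24 h in that way. These comparisons share the untreated arrays and, between steps, the HGF arrays, so their directions are not independent of each other.

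With ITGB4 none of the 21 was called, where 0.0493% of all probe sets were, and the median difference was 0.01. An unadjusted p under 0.05 was reached by 1 of the 21, the HSP90AB1 probe set 214359_s_at described above, and by 617 of all. That was a slightly smaller share of the 21 than of all probe sets tested. On the ITGB4 arrays the median of the 21 lay on either side of the untreated mean, at 0.15 on replicate 1 and -0.13 on replicate 2. The medians of the HSP40 probe sets (0.38 and -0.35), HSP110 (0.14 and -0.32) and the mitochondrial chaperonin (0.15 and -0.06) also split. The median of HSP90 was above it on both arrays, at 0.20 and 0.09, and that of HSF1 below it, at -0.19 and -0.05. Not every probe set lay on the side of its median. HSP90AA1 211968_s_at was at -0.18 and -0.20, and HSF1 213756_s_at was at 0.03 on replicate 2. Between 24 h and 1 h with HGF none of the 21 was called either, with 0.00986% of all probe sets called and a median difference of -0.04. At an unadjusted p under 0.05 were 7 of the 21 and 1491 of all, a larger share of the 21 than of all tested.

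By role, the median difference from untreated cells over the HSP40 probe sets was 0.40 and 0.46 on the 6 h arrays and -0.64 and -0.43 on the 24 h arrays. For the HSP110 probe sets it was 0.26 and 0.15 at 6 h and -0.41 on both arrays at 24 h. For HSP90 it was 0.07 and 0.10 at 6 h and -0.09 and -0.17 at 24 h, and for the mitochondrial chaperonin 0.11 and 0.23 and then -0.24 and -0.26. These are medians over 4, 6, 6 and 3 probe sets that share genes. Over the 10 arrays, the probe sets of HSPH1 and HSPE1 were each other's most similar gene among the kept genes, at r = 0.976. Next to HSPH1 came DGKI, a diacylglycerol kinase, at r = 0.949, and UGCG, which makes glucosylceramide, at r = 0.946. Nearest to DNAJA1 were PSMD12, a subunit of the 26S proteasome, at r = 0.987, NETO2 at r = 0.985 and RAN, the GTPase of nuclear transport, at r = 0.984. The 10 points fall in 5 pairs of replicates and were processed together, and such values describe a shared pattern over the groups.

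Other chaperone genes, each represented by its probe set with the highest mean, were read beside the 9. Over all 6370 genes represented in this way, 12.4% were lower and 7.43% higher at 24 h than at 6 h, and 11.7% were higher and 7.44% lower at 6 h than at 1 h. Of these lists, the subunits of the cytosolic chaperonin and of prefoldin, which fold actin and tubulin, had the most calls per kept gene in both steps. Of 12 kept, 5 were higher at 6 h than at 1 h and 5 were lower at 24 h than at 6 h, none opposite. CCT6A rose by 0.94 (SE 0.19, adjusted p = 0.0103) and fell by 0.76 (SE 0.19, adjusted p = 0.0195), and CCT2 rose by 0.50 and fell by 0.76. CCT8 rose by 0.66, PFDN2 fell by 0.51, and PFDN4 rose by 0.62 and fell by 0.50.

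Of 15 other cytosolic heat shock proteins and heat shock factors kept, 2 were higher and 1 lower at 6 h than at 1 h, and 1 was lower at 24 h than at 6 h. DNAJC2, a ribosome-bound J protein, rose by 1.47 (SE 0.29, adjusted p = 0.00921) and fell by 1.19 (SE 0.29, adjusted p = 0.0166). HSPA14, its HSP70-like partner on the ribosome, rose by 0.90, and HSPA1L fell by 0.56 between 1 h and 6 h. Of 18 cochaperones 3 were higher and 1 lower at 6 h than at 1 h, and 1 was higher and 3 lower at 24 h than at 6 h. CHORDC1, an HSP90 cochaperone, rose by 1.20 and fell by 0.86. TTC4, which bridges HSP70 and HSP90, rose by 0.66 and fell by 0.69, and BAG5, an HSP70 nucleotide exchange factor, rose by 0.55 and fell by 0.62. UNC45A, a myosin chaperone, ran the other way, at -0.46 and then 0.42.

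Chaperones of other compartments moved in both directions. Of 11 other mitochondrial chaperones and proteases kept, 1 was lower at 6 h than at 1 h, and 1 was higher and 1 lower at 24 h than at 6 h. GRPEL1, the nucleotide exchange factor of mitochondrial HSP70, fell by 0.89 (SE 0.13, adjusted p = 0.00222) from 6 h to 24 h, and the protease LONP1 fell by 0.44 from 1 h to 6 h and then rose by 0.43. Of 18 chaperones of the endoplasmic reticulum 1 was higher and 3 lower at 6 h than at 1 h, and 1 was higher and 1 lower at 24 h than at 6 h. HERPUD1, which takes part in the degradation of misfolded proteins there, fell by 1.36 (SE 0.18, adjusted p = 0.00235) by 6 h and rose by 1.22 (SE 0.18, adjusted p = 0.00208) by 24 h, opposite to the heat shock genes. DNAJC10 rose by 0.89 while SIL1 and ERP29 fell by 0.51 and 0.40 between 1 h and 6 h, and SDF2L1 fell by 0.59 between 6 h and 24 h. Against untreated cells, where 5.87% of genes were called at 1 h and 6.47% at 6 h, TTC4, BAG5 and GRPEL1 were higher by 0.83, 0.49 and 0.76 at 6 h and HERPUD1 was lower, at -1.14. At 1 h DNAJC10 was lower, at -0.84, and SIL1 higher, at 0.53. No gene of these lists was called at 24 h or with ITGB4, where DNAJC2 at -0.74 (adjusted p = 0.405) and HTRA2 at 0.39 (adjusted p = 0.696) had the largest differences.

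**Figure D4:**
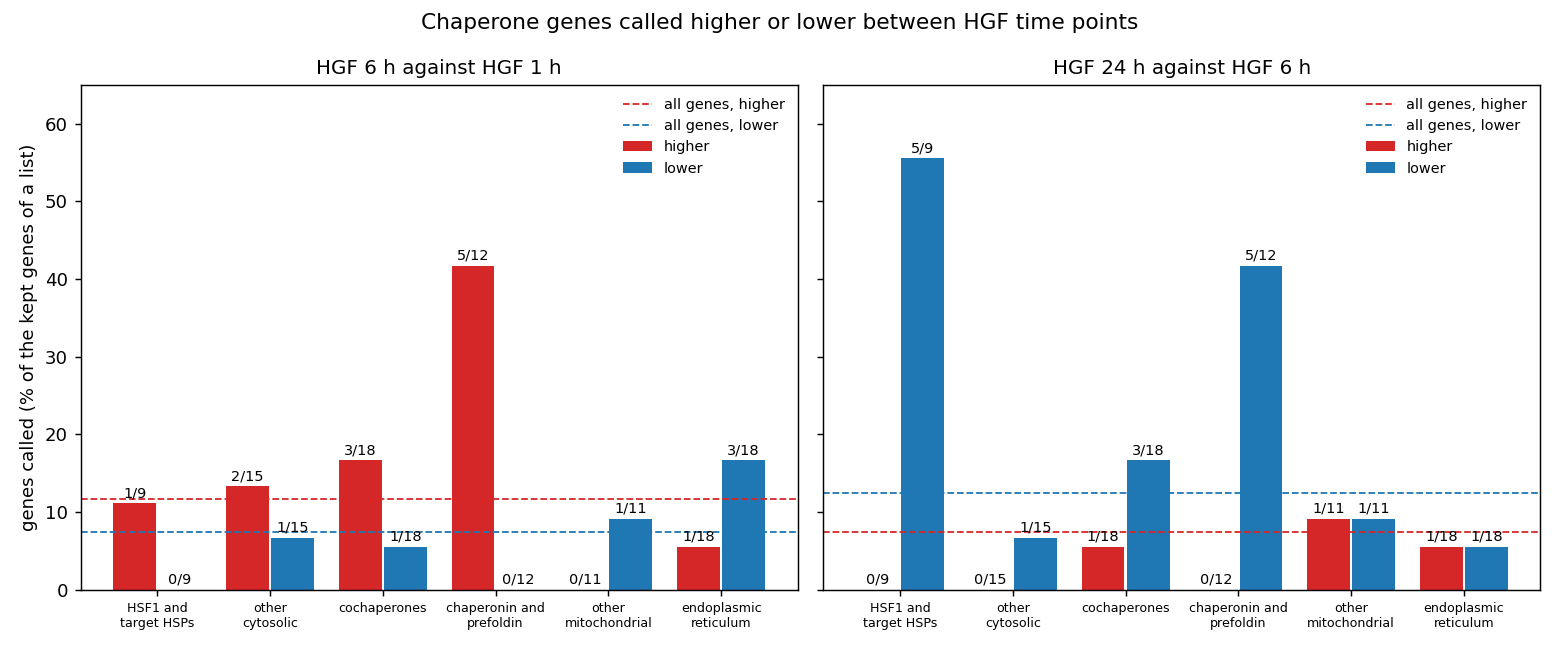
Share of the kept genes of each chaperone list (vertical axis, %) that limma called higher (red) or lower (blue) between HGF time points, each gene by its probe set with the highest mean; numbers above the bars are genes called of genes kept and dashed lines are the shares over all 6370 genes. At 24 h against 6 h the heat shock group has 5 of 9 genes lower and the chaperonin and prefoldin list 5 of 12. At 6 h against 1 h they have 1 of 9 and 5 of 12 genes higher.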

How the data were processed

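RNA of 10 cultures was hybridised to Affymetrix hgu133a arrays. The authors summarised the probe data with RMA (affy, per the submitters' processing notes), which leaves the deposited values on a log2 scale, background-corrected and normalised between arrays. No further normalisation was made. A difference between groups of a probe set is therefore a log2 ratio, and RMA tends to compress ratios at low signal. Probe sets were named from the platform annotation where it gives a single symbol. In place of the study's presence calls, as many probe sets as the study kept were taken, those with the highest second-highest value (at least 7.31), the 68 controls apart. In R 4.3.3, limma 3.58.1 fitted a mean per group to all 10 arrays (5 residual degrees of freedom, prior degrees of freedom 5.92, prior SD 0.144), and p-values were adjusted by Benjamini-Hochberg over all kept probe sets within each of 7 comparisons, at a threshold of 0.05. With 2 arrays a group an exact permutation test of a single probe set cannot go below 0.333, so none was run. The steps were tested on simulated data. The group of genes, the gene lists and the comparisons were chosen with earlier results of these data known. All probe sets of the group are named, and of each other list at most 4 called genes with the largest differences per comparison, or the largest difference where none was called. No scan or batch information was used. Precision is limited by the 2 arrays per group. Alternatives covered the filter, the scaling, the prior, the spread, the adjustment, Dunnett's test, gene means, a replicate block and leaving out each array.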

Additional observations from a re-analysis of the deposited data

Results flagged for a closer look

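Levels differed between HGF time points, by the direct contrast of the 2 times (limma), in 16 cases. Time with HGF and time in culture cannot be told apart in these contrasts. From 1 h to 6 h the differences were 1.32 and 0.78 for DNAJA1 (200880_at and 200881_s_at), 0.65 for HSPA4 (211015_s_at), 0.73 for HSPH1 (206976_s_at) and 0.60 for HSPD1 (200806_s_at). From 6 h to 24 h they were -1.92 and -1.18 for DNAJA1, -0.71 and -0.73 for DNAJB1, -0.60, -0.67, -0.68 and -0.55 for HSPA4, -1.40 and -1.25 for HSPH1 and -1.03 for HSPE1. Both steps share the 6 h arrays, and HGF 1 h replicate 1 moves with the first of them, as given above.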

How the results depend on the processing

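No call of the group changed direction under any alternative. Calls at 6 h against 1 h were kept in 68 of 85 and lost in 17 of 85 cases of a probe set under an alternative, and those at 24 h against 6 h were kept in 165 and lost in 21 of 186. Counts of called probe sets that moved were as follows. At 1 h against untreated cells the count of 0 became 1 with cyclic loess, 1 with a trended and robust prior and 1 with the spread of the compared groups alone, and was 0 to 4 with an array left out. At 6 h it became 1 with median centring, 1 with the replicate block and 3 with the spread of the compared groups alone, and was 0 to 1 with an array left out. At 24 h it became 2 with adjustment over the 4 comparisons together and was 0 to 1 with an array left out. At 6 h against 1 h the count of 5 became 9 with a trended and robust prior and 1 to 13 with an array left out, and the 4 genes became 2 with gene means. At 24 h against 6 h the count of 11 was 4 to 11 with an array left out and 10 or 11 otherwise. Where leaving out an array leaves 1 in its group, that array is taken to vary like the other groups. The cause of these changes was not tested.

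Groups share replicate numbers, which the labels do not tie to a shared day or batch. Deviations of same-numbered arrays correlated between -0.14 and 0.461 over the 10 pairs of groups, and the 2 pairs not above 0.1 were those of HGF 1 h with ITGB4 and with HGF 24 h. Pairing was taken to need every pair above 0.1, so the block was kept as an alternative, although the 6 pairs without HGF 1 h were all above it. With the replicate block the counts were 4 at 6 h against 1 h, without HSPH1, 11 at 24 h against 6 h, 1 at 6 h and 0 in the other comparisons. With the HGF 1 h numbers crossed, chosen after seeing the data, the count at 24 h against 1 h was 0.

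All 21 probe sets passed the filter, which takes the second-highest value over the arrays (at least 7.31). The HSPA4 probe set 208814_at read below that value on both 24 h arrays, at 6.84 and 6.83. The 2 arrays a group limit what can be told. Differences that missed the threshold are not shown to be absent.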
